A study of Mus musculus with 12 samples.

Results

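Visceral and subcutaneous white fat of C57BL/6 mice were compared as whole tissue, on 6 of the 12 arrays of the series. These were the 3 arrays of unfractionated perigonadal tissue (VAT, a visceral depot) and the 3 of unfractionated inguinal tissue (SAT, a subcutaneous depot), chosen by their titles, and all genes with a probe set of their own were described. The other 6 arrays held adipose progenitor preparations (AP) of the same 2 depots, 3 each, made from dissociated tissue by removing cells that carry lineage (blood cell) markers or CD31 with antibody-coated beads. All material was fresh, no treatment or transgene is named, and the labels call the 3 samples of a group biological replicates. The labels give neither sex nor age, nor which animals or how many gave each tissue piece. Each p-value therefore reflects only the spread among these samples, which may in part be technical. That spread was estimated within the groups of all 12 arrays, the AP preparations included.

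White fat is mostly adipocytes by volume, and around them lie fibroblast-like progenitors, vessels, nerves and immune cells. Visceral fat lies inside the body cavity and is covered by mesothelium, a sheet of flat epithelial cells that secretes lubricating glycoproteins and carries keratins and uroplakins. Inguinal fat lies under the skin without such a covering and in mice readily forms beige adipocytes, which burn fuel for heat through the uncoupling protein UCP1. Each depot also keeps a record of its embryonic position in transcription factors such as WT1 in visceral fat and TBX15 in subcutaneous fat. In such bulk samples, more cells of a type and more RNA per cell cannot be told apart.

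Values are log2 intensities, on which a difference of 1 is a 2-fold change, and all differences are VAT minus SAT in whole tissue unless another is named. Genes with an adjusted p under 0.05 in limma are named as called. Near background means that a group averaged under 4.09, the value that 40% of all deposited intensities lie below. The files give no detection calls, so a difference against such a group is only a fitted value. Median levels of the 6 tissue arrays were 4.49 to 4.62. The first principal component of these arrays held 44.49% of their variance and separated the depots, and correlations across genes were 0.9774 to 0.9833 between depots and 0.9869 to 0.9908 within them. SAT replicate 3 stood apart from the other SAT arrays in several gene groups described below, with low beige fat genes and high progenitor and matrix genes. For genes and lists on which that array bears most, values without it are given as well. Markers of the Y chromosome, Kdm5d, Uty and Eif2s3y, read 5.39 to 8.07 on the 6 arrays, while Xist, the RNA of the inactive X chromosome, read 3.00 to 3.56.

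The depots differed in 1009 of 22180 genes, 4.55% of those tested. Of these, 621 (2.8% of the tested genes) were higher and 388 (1.75%) were lower in VAT, and the median difference of all genes was 0.0033. At least 2-fold differences were found for 251 called genes (1.13%), 154 of them higher (0.694%) and 97 lower (0.437%). The 3 VAT arrays and the 3 SAT arrays did not overlap in 994 of the 1009 called genes (98.5%), against 18.1% of all tested genes. Call and overlap rest on the same values, so the 98.5% describes the calls and is no separate support for them. Leaving out SAT replicate 1 lowered the number of calls to 660 (412 higher and 248 lower), and leaving out VAT replicate 3 lowered the downward calls to 244. Without SAT replicate 3 there were 1026 calls, 793 of which were among the 1009. In a fit of the 6 tissue arrays alone 601 genes were called (398 higher and 203 lower), and of the genes whose tissue difference is given below as called, Elovl6, Hoxa5, Hoxa9, Mbp, Pi16, Cox7a1 and Cav1 then missed the threshold, with adjusted p of 0.0501 to 0.114. Scaling each array by 12 housekeeping genes moved the median of all genes to -0.135 and turned the split to 311 higher and 708 lower, so 30.52% in place of 61.55% of the calls were higher in VAT.

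**Figure D1:**
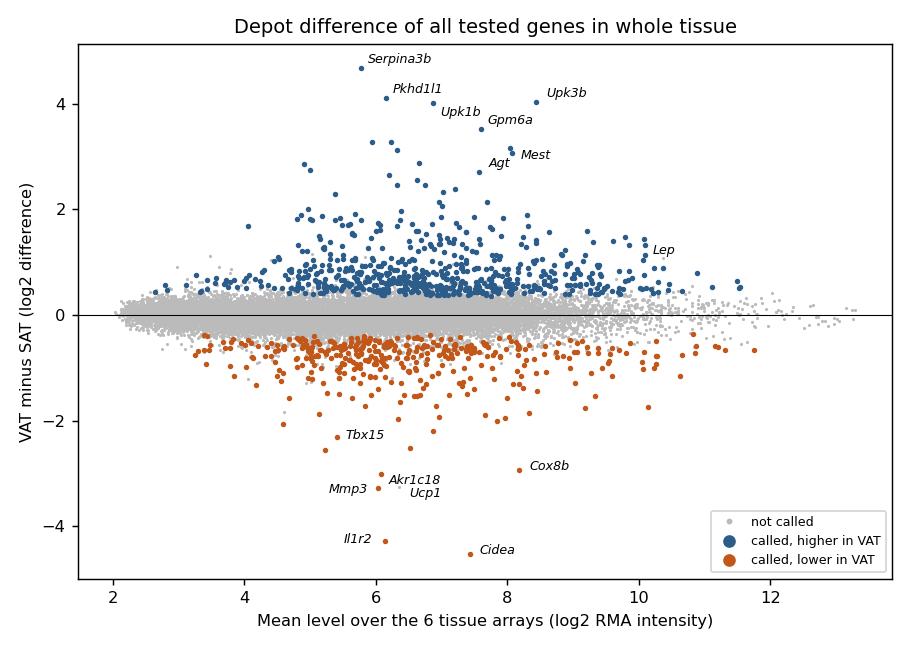
Depot difference (VAT minus SAT, log2) of each of the 22180 tested genes in whole tissue against its mean level over the 6 tissue arrays (log2 RMA intensity). Blue points are called higher in VAT (621 genes), orange points called lower (388) and grey points not called. The differences run from -4.53 (Cidea) to 4.67 (Serpina3b), and Ucp1 at -3.25 is among the grey points.

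Each list count below is to be read beside the shares of all tested genes, 2.8% called higher and 1.75% called lower. A single call in a list lies near these shares and is not read as a result about the list. Housekeeping scaling, which turned the split of the calls, also moved list counts, and not all of these are given below. Of the 45 gene lists examined, that of the mesothelium had the highest median difference. Of 21 listed markers, 19 were called higher in VAT and 0 lower, with a median difference of 1.80, against 2.8% of all genes called higher. The markers not called were Calb2 (0.13) and Podxl (0.59, adjusted p = 0.0989). On the linear scale the summed level of the 21 genes was, as log2, 9.81 to 9.95 on the SAT arrays and 12.31 to 12.63 on the VAT arrays.

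Upk3b, a uroplakin of the mesothelial surface, read 6.49, 6.46 and 6.33 in SAT and 10.35, 10.32 and 10.71 in VAT. All 3 VAT arrays lay far above all 3 SAT arrays, and the difference was 4.03 (SE 0.25, adjusted p = 1.45e-07), or 16.4-fold. Upk1b, another uroplakin, read 4.95, 5.48 and 4.17 in SAT and 8.68, 8.90 and 9.06 in VAT (difference 4.01, SE 0.25, adjusted p = 1.37e-07). SAT replicate 3 was the lowest array for it. Msln encodes mesothelin, a glycoprotein anchored to the mesothelial surface, and read 4.71, 4.40 and 4.66 in SAT and 7.74, 7.97 and 7.89 in VAT. The groups did not overlap, and the difference was 3.28 (SE 0.17, adjusted p = 2.25e-08). Further members of the list with large differences included Pkhd1l1 (4.10), Gpm6a (3.52), Lrrn4 (3.28), Slpi (2.87), which encodes a secreted inhibitor of leukocyte proteases, and Muc16 (2.75), a large mucin, whose SAT mean was near background. The keratins Krt8 (0.82) and Krt18 (1.03) of simple epithelia were higher by less, and a second probe set of Krt18 gave 0.42 and was not called.

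Because these genes moved together, the 250 bases before the start of Upk3b and Lrrn4 are shown, beside those of Ucp1 and Cox8b from the beige fat group described further on. They are taken from RefSeq (GRCm38.p6), each in the direction of its gene, and capitals mark AGGTCA, the half-site bound by many nuclear receptors, or its reverse complement TGACCT. The windows are chr5:136038246-136038495 on the plus strand for Upk3b, chr2:132880863-132881112 on the minus strand for Lrrn4, chr8:83290098-83290347 on the plus strand for Ucp1 and chr7:140900447-140900696 on the minus strand for Cox8b.
Upk3b: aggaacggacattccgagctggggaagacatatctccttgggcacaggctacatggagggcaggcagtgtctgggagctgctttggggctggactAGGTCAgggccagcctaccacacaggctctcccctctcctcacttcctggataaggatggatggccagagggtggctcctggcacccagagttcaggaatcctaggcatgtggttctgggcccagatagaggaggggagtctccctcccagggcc
Lrrn4: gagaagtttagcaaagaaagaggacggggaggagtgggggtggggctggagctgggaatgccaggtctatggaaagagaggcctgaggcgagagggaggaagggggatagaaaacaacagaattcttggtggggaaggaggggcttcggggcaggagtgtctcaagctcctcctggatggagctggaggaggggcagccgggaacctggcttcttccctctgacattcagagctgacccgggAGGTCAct
Ucp1: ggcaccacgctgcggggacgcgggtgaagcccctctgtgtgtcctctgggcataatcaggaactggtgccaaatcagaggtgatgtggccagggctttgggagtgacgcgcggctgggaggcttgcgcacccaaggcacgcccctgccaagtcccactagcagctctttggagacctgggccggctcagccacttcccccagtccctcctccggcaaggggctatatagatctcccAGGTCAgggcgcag
Cox8b: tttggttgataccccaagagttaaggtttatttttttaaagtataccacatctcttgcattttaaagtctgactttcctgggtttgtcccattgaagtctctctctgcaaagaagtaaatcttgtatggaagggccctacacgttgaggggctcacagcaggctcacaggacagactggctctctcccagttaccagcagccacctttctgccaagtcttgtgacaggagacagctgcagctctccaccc
The first 3 windows hold 1 copy each and that of Cox8b holds 0. Of the 27025 genes with such a window, 15.76% hold the motif on either strand, as do 4 of the 13 mesothelial and 3 of the 15 beige fat genes with a window. A match is a description of the letters and not a site.

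**Figure D2:**
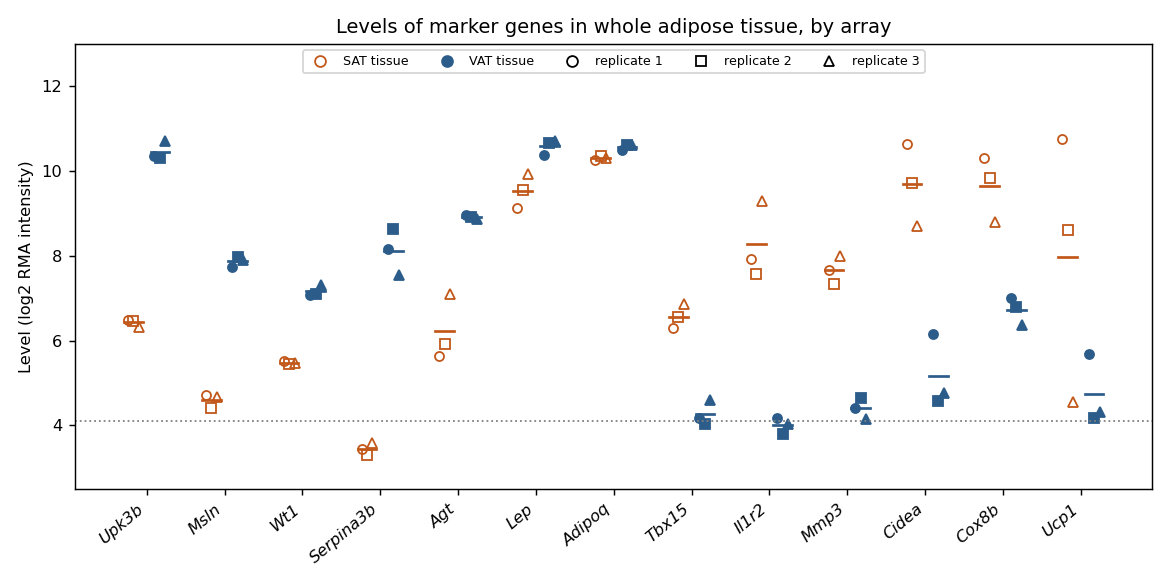
Level (log2 RMA intensity) of 13 genes on each of the 6 whole tissue arrays. Open orange symbols are SAT, filled blue symbols VAT, the shape gives the replicate number, short bars are group means and the dotted line is the near-background level of 4.09. Upk3b, Msln and Wt1 are tight within each depot, whereas Ucp1 in SAT runs from 10.76 in replicate 1 to 4.55 in replicate 3.

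Transcription factors of embryonic position separated the depots as well. Of 15 listed factors of visceral position, 8 were higher in VAT and 0 lower (median 0.84), and of 24 of subcutaneous position 6 were lower and 1 was higher (2 without SAT replicate 3; median -0.33). Wt1, a zinc finger factor of the mesothelium and of visceral progenitors, read 5.51, 5.44 and 5.48 in SAT and 7.08, 7.11 and 7.31 in VAT. The arrays of a depot differed by at most a small part of the gap of 1.69 (SE 0.11, adjusted p = 1.75e-07). Bnc1, a zinc finger factor also on the mesothelial list, was higher by 1.88, and Osr1, an odd-skipped factor of intermediate mesoderm, by 1.39. For Tcf21, a basic helix-loop-helix factor of visceral mesoderm, the whole tissue difference was 0.85 (adjusted p = 0.00289), with 4.60, 5.02 and 4.96 in SAT and 5.65, 5.71 and 5.76 in VAT. Because Wt1 and Bnc1 are on the list of mesothelial markers too, the part of the mesothelium in the visceral list was not tested.

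On the subcutaneous side, Tbx15, a T-box factor of the trunk and limb mesenchyme, read 6.29, 6.55 and 6.86 in SAT and 4.17, 4.02 and 4.60 in VAT. The VAT arrays were close to background, and the difference was -2.30 (SE 0.16, adjusted p = 6.11e-07). Prrx1, a homeobox factor of limb mesenchyme, was lower by 1.41 on the log2 scale (difference -1.41, adjusted p = 0.000111), and Shox2, a homeobox factor of the proximal limb, showed a difference of -0.99. Within the HOX clusters, whose genes are switched on in order along the body axis, 3 of 36 genes were higher and 3 lower, and the median was -0.005. Hoxc10 read 6.99, 7.55 and 7.03 in SAT and 5.34, 5.09 and 6.19 in VAT (difference -1.65, adjusted p = 0.000685). Its neighbours in the cluster went both ways, since Hoxc9 differed by -0.61, Hoxc8 by 1.13 (9.47, 9.61 and 9.49 in SAT against 10.56, 10.72 and 10.69 in VAT) and Hoxc4 by 0.67. In the HOXA cluster Hoxa5 was higher in VAT (1.05) and Hoxa9 lower (-0.99). Without VAT replicate 1 the number of higher HOX genes was 5.

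Several secreted signals differed in the same direction as the mesothelial genes. Among 28 genes of Wnt signalling 8 were higher in VAT and 3 lower (median 0.17). Wnt2b, a ligand of the canonical pathway, read 4.99, 4.81 and 4.47 in SAT and 7.78, 7.91 and 7.97 in VAT, a difference of 3.13 (SE 0.18, adjusted p = 6.04e-08). Rspo1, which prolongs Wnt receptor signalling and is on the mesothelial list too, was higher by 3.06, and Sfrp1, a secreted Wnt antagonist, by 1.57. The ligand Wnt2 went the other way, with 5.18, 5.54 and 5.33 in SAT and 4.25, 4.36 and 4.60 in VAT (difference -0.95, adjusted p = 0.000364). The lower count depended on single arrays, being 5 without SAT replicate 1 and 1 without VAT replicate 1.

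Of 21 genes of retinoid metabolism, which turns vitamin A into the hormone retinoic acid, 4 were higher in VAT and 1 lower. The lower count was 0 when any tissue array other than SAT replicate 2 was left out. With housekeeping scaling the split was even, with 2 higher and 2 lower. Aldh1a1 and Aldh1a2, a pair of dehydrogenases that make retinoic acid, were higher by 1.57 and 1.58. For Aldh1a1 the SAT arrays read 7.35, 7.93 and 8.24 and the VAT arrays 9.28, 9.42 and 9.54. Rbp4, the plasma carrier of retinol and an adipokine, was higher by 0.59, a call that was lost with housekeeping scaling (0.45, adjusted p = 0.0606). Among 29 genes of TGF-beta and BMP signalling 1 was lower, a count that ran from 0 to 3 as tissue arrays were left out, and 3 were higher, namely Bmp4 (1.58), Tgfb3 (1.38) and Chrdl1 (1.13), a secreted BMP antagonist. Among 29 genes of FGF, IGF and VEGF signalling 4 were higher (7 without SAT replicate 3) and 2 lower. The lower count was 0 without SAT replicate 1 or VAT replicate 3, 1 without SAT replicate 3 and 4 with housekeeping scaling. The higher genes were led by Fgf1 (1.67), with Igfbp2 (0.88) and Vegfc (0.86), the growth factor of lymphatic vessels, among them. For each of these 6 genes the 3 VAT arrays lay above the 3 SAT arrays. The summed mesothelial markers given above moved in the same direction, and their part in these differences was not tested.

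Genes of brown and beige fat had the lowest median difference of the 45 lists, and their levels varied among the SAT arrays. Of 18 listed genes 7 were lower in VAT and 0 higher, with a median of -0.82, against 1.75% of all genes called lower. The 18 differences ran from -4.53 to -0.02 (Ckmt1). Cidea, a lipid droplet protein abundant in thermogenic fat, read 10.64, 9.73 and 8.71 in SAT and 6.16, 4.57 and 4.76 in VAT. SAT replicate 1 and VAT replicate 1 were the highest arrays of their groups, and the groups did not overlap. The difference was -4.53 (SE 0.40, adjusted p = 5.21e-06), or 23.1-fold. Cox8b, a subunit of cytochrome oxidase found in muscle and thermogenic fat, read 10.30, 9.83 and 8.80 in SAT and 7.01, 6.78 and 6.37 in VAT (difference -2.92, adjusted p = 2.38e-05). Otop1, a proton channel, read 7.17, 6.43 and 5.88 in SAT and 3.85, 3.97 and 4.02, near background, in VAT (difference -2.55, adjusted p = 5.74e-06). For all 3 genes SAT replicate 3 was the lowest SAT array, and without it the differences were -5.02 for Cidea, -3.35 for Cox8b and -2.85 for Otop1.

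Ucp1 itself was not called, with an adjusted p of 0.0818. It read 10.76, 8.62 and 4.55 in SAT and 5.69, 4.17 and 4.32 in VAT, so that SAT replicate 3 lay below VAT replicate 1 and the groups overlapped. The fitted difference was -3.25 (SE 0.98). It was called with the replicate number as a block (adjusted p = 0.0429), with array weights (0.0464) and with housekeeping scaling (0.0466). Without SAT replicate 3 it was -4.96 (adjusted p = 1.52e-05), and without SAT replicate 1 it was -1.86 (adjusted p = 0.300). Leaving out SAT replicate 3 raised the number of called beige fat genes from 7 to 12 of 18. Cox7a1, a further subunit of cytochrome oxidase, differed by -1.92 (adjusted p = 0.0150) with a wide spread in SAT (9.25, 7.85 and 6.64). Its call was lost without VAT replicate 2 (adjusted p = 0.0529) or VAT replicate 3 (0.0584), and without SAT replicate 1 its difference was -1.25.

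Mitochondrial fuel genes shifted less but in the same direction. In fatty acid oxidation 6 of 17 genes were lower in VAT (median -0.39), and in the respiratory chain and citrate cycle 4 of 25 (median -0.29), with 0 higher in either (1 in fatty acid oxidation without SAT replicate 3). Acadl, the long-chain acyl-CoA dehydrogenase, read 10.93, 10.64 and 10.14 in SAT and 9.64, 9.57 and 9.44 in VAT (difference -1.02, adjusted p = 0.00179). The groups did not overlap, and SAT replicate 3 was again the lowest SAT array (difference -1.24 without it). Cpt2, of the carnitine shuttle, and Idh3a, of the citrate cycle, differed by -0.80 and -0.87. Pdk4, a kinase that turns off pyruvate oxidation, read 11.08, 9.76 and 9.32 in SAT and 8.49, 8.45 and 7.96 in VAT (difference -1.75, adjusted p = 0.00522). These counts moved with single arrays: the first fell to 2 without SAT replicate 1 or VAT replicate 3 and to 3 without SAT replicate 2 or VAT replicate 2. The second was 1 without SAT replicate 1 or VAT replicate 3, 2 without SAT replicate 2, and 10 without SAT replicate 3. With housekeeping scaling it was 8.

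**Figure D3:**
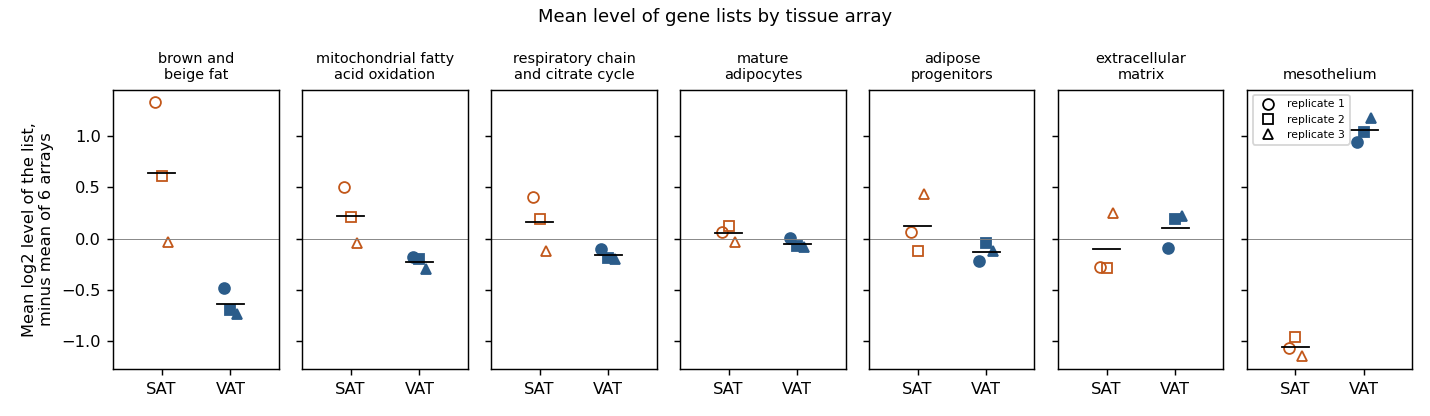
Mean log2 level of 7 gene lists on each of the 6 whole tissue arrays, after subtracting the mean of the 6. Circles, squares and triangles are replicates 1, 2 and 3, open orange for SAT and filled blue for VAT, and bars are group means. SAT replicate 3 is the lowest SAT array in the beige fat and both mitochondrial lists and the highest in the progenitor and matrix lists, whereas the mean of the mature adipocyte markers stays near 0 on every array.

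The mean level of mature adipocyte markers was 10.61, 10.66 and 10.51 in SAT and 10.54, 10.47 and 10.46 in VAT, and of 18 markers 1 was higher and 1, Cidea, was lower (2 without VAT replicate 1; median 0.16). The difference was above 0 for 13 of the 18, and the groups did not overlap in 10, against 18.1% of all genes. The summed markers were, as log2, 15.45 to 15.47 in SAT and 15.58 to 15.61 in VAT. The sum, unlike the mean that Cidea lowers, was thus higher on all VAT arrays. That gap is about the size of the shift by housekeeping scaling, which moved the median of all genes to -0.135. The sum was not recomputed with that scaling. Adipoq, the hormone adiponectin, read 10.27, 10.36 and 10.32 in SAT and 10.49, 10.61 and 10.61 in VAT (difference 0.25, adjusted p = 0.704). Plin1, the coat protein of the lipid droplet, differed by 0.28 (adjusted p = 0.209) and Pparg, the master regulator of adipogenesis, by -0.10 (adjusted p = 0.847). The member that was higher was Lep, the satiety hormone leptin, with 9.14, 9.55 and 9.93 in SAT and 10.38, 10.66 and 10.72 in VAT. All 3 VAT arrays were above all SAT arrays, and the difference was 1.05 (SE 0.20, adjusted p = 0.00556).

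Of 21 adipokines and their receptors 3 were higher in VAT and 0 lower (1 lower without SAT replicate 1), namely Lep, Rbp4 and Agt. The hormone precursor Agt, angiotensinogen, read 5.63, 5.92 and 7.09 in SAT and 8.96, 8.92 and 8.88 in VAT. VAT was even and SAT replicate 3 was the highest of its group, and the difference was 2.71 (SE 0.25, adjusted p = 7.67e-06), or 3.15 without that array. Mest, an imprinted gene tied to the expansion of fat tissue, read 6.36, 6.15 and 6.89 in SAT and 9.64, 9.73 and 9.51 in VAT (difference 3.16, SE 0.16, adjusted p = 2.25e-08). The highest difference of any tested gene was that of Serpina3b, a protease inhibitor of a family of closely related mouse genes, with 3.45, 3.29 and 3.59 in SAT, near background, and 8.16, 8.64 and 7.54 in VAT (4.67, SE 0.20, adjusted p = 9.69e-09). Whether its probes read relatives was not tested. In the complement and acute phase list 3 of 24 genes were higher in VAT and 0 lower (1 lower without SAT replicate 2, VAT replicate 1 or VAT replicate 2). The higher genes were Lbp (1.60), which presents bacterial lipopolysaccharide, and the complement components C6 (1.44) and C2 (1.03).

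In de novo lipogenesis 3 of 16 genes were lower in VAT (median -0.42), 1 of them being Elovl6, which lengthens newly made fatty acids. Elovl6 read 11.49, 10.71 and 10.84 in SAT and 10.39, 8.83 and 8.58 in VAT, with VAT replicate 1 well above the other VAT arrays (difference -1.75, adjusted p = 0.00570). Without VAT replicate 1 the list had 7 lower genes, without SAT replicate 1 or VAT replicate 3 it had 1, and with housekeeping scaling 6. In triglyceride synthesis and lipolysis 5 of 23 genes were lower and 0 higher, and the count was 1 without SAT replicate 1, 3 without SAT replicate 2 and 2 without VAT replicate 2 or VAT replicate 3. Of 17 genes of fatty acid uptake 1 was higher, Cav1 (0.41, adjusted p = 0.0379), the main protein of caveolae, and that call was lost when any tissue array other than SAT replicate 3 was left out. In the same list 3 were lower, led by Fabp5, a fatty acid binding protein of adipocytes and macrophages, at -0.94 (7.97, 8.37 and 7.87 in SAT, and 7.20, 7.22 and 6.98 in VAT), and the list had 1 lower gene without SAT replicate 1, VAT replicate 2 or VAT replicate 3. No call was made among 17 cholesterol synthesis genes or 22 genes of branched-chain amino acid catabolism, though 1 gene of the former was lower without SAT replicate 2 and 1 of the latter without SAT replicate 3, VAT replicate 2 or VAT replicate 3.

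**Figure D4:**
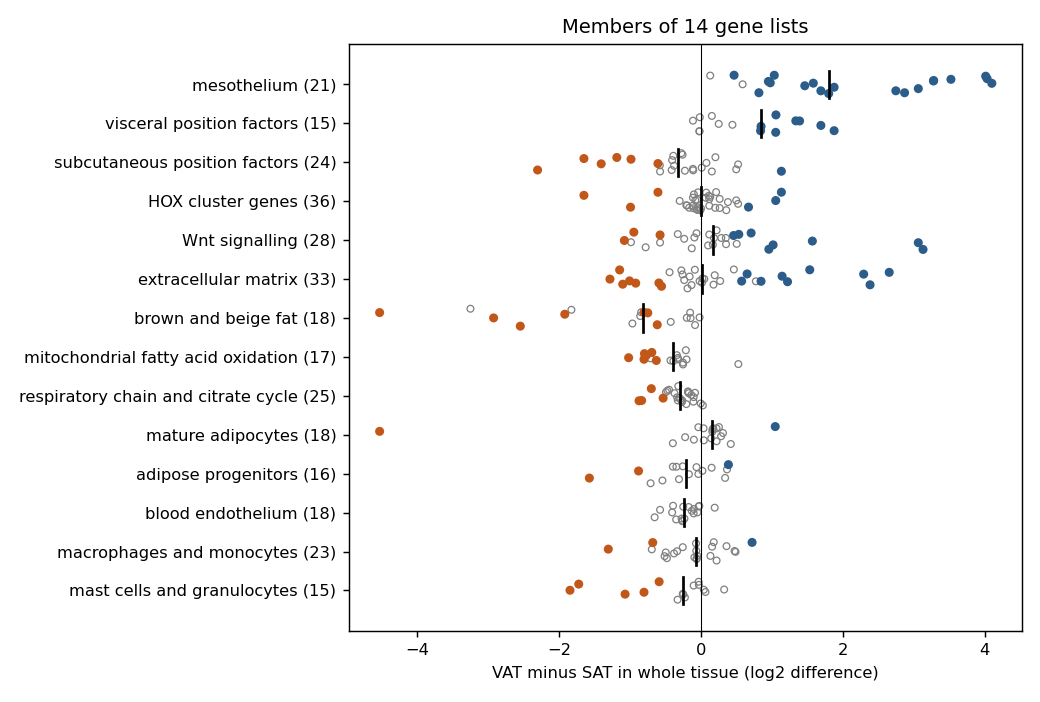
Depot difference in whole tissue (VAT minus SAT, log2) of the measured members of 14 gene lists, with the number of members in brackets. Filled blue points are called higher in VAT, filled orange points called lower, open grey points not called, and black bars are list medians. The mesothelium has the highest median (1.80) and brown and beige fat the lowest (-0.82), while blood endothelium has no called member.

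Matrix genes were divided. Of 33 genes 9 were higher in VAT and 7 lower, with a median of 0.01, and the lower count was 4 without VAT replicate 1. On the higher side stood Col6a5, a collagen VI chain, at 2.65 (4.59, 4.84 and 5.19 in SAT, and 7.47, 7.53 and 7.58 in VAT). Fmod, a small proteoglycan that binds collagen fibrils, was higher by 2.38 (SE 0.12, adjusted p = 2.25e-08), and Cilp, a cartilage matrix protein also made by fibroblasts, by 2.29. On the lower side, Col1a1, the main chain of collagen I, read 10.82, 11.12 and 11.65 in SAT and 9.83, 10.16 and 10.16 in VAT (difference -1.15, adjusted p = 0.000541). Postn, which crosslinks matrix, and Col6a3 differed by -1.28 and -1.10. SAT replicate 3 was the highest array for Col1a1, and without it the difference was -0.92.

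Of 19 matrix proteases and inhibitors 4 were lower in VAT and 2 higher. Mmp3, stromelysin, read 7.66, 7.34 and 7.99 in SAT and 4.40, 4.65 and 4.14 in VAT (difference -3.27, SE 0.23, adjusted p = 6.06e-07), or 9.62-fold. Mmp2, a gelatinase, differed by -1.53. The inhibitor Timp4, which is made by adipocytes, was higher by 2.14, with 6.40, 6.31 and 7.15 in SAT and 8.61, 8.33 and 9.34 in VAT. In both depots replicate 3 was the highest array for Timp4, and the groups did not overlap. The higher count of the list was 1 when SAT replicate 1, SAT replicate 2, VAT replicate 2 or VAT replicate 3 was left out.

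Further genes with large falls follow. Il1r2, a decoy receptor that binds interleukin-1 without signalling, read 7.93, 7.58 and 9.30 in SAT and 4.18, 3.79 and 4.04, near background, in VAT (difference -4.27, SE 0.30, adjusted p = 6.32e-07). Without SAT replicate 3, its highest array, the difference was -3.75. Il1rl2, the receptor of interleukin-36, differed by -2.51. Akr1c18, an enzyme that inactivates progesterone, read 7.46, 7.02 and 8.26 in SAT and 4.82, 4.49 and 4.43 in VAT (difference -3.00, adjusted p = 2.92e-06). Apod, a lipid carrier of fibroblasts and glia, differed by -2.20, and Pi16, a marker of interstitial fibroblast progenitors, by -1.57 (8.56, 8.04 and 9.76 in SAT, and 7.25, 7.54 and 6.85 in VAT). The groups did not overlap for these 5 genes. For those named among the 15 largest falls the choice required this, whereas Pi16 was named as a called member of the progenitor list. SAT replicate 3 was the highest array for each of the 5 genes. Without that array the differences were -2.14 for Il1rl2, -2.66 for Akr1c18, -1.75 for Apod and -1.09 for Pi16, and all stayed called.

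Of 16 listed general progenitor markers, Pi16 among them, 2 were lower (1 without SAT replicate 1, SAT replicate 3 or VAT replicate 3) and 1 was higher (0 without any tissue array other than SAT replicate 2; median -0.21). Pdgfra, the receptor that defines adipose progenitors, read 8.82, 8.31 and 9.64 in SAT and 8.55, 8.66 and 8.52 in VAT (difference -0.35, adjusted p = 0.519), and without SAT replicate 3 its difference was 0.01. Dpp4, a surface peptidase of interstitial progenitors, differed by -0.17 (adjusted p = 0.845), with 9.23 in SAT replicate 3 against 8.19 and 7.73 in the other SAT arrays. Without that array the sign turned to 0.25. The summed progenitor markers were, as log2, 11.82 to 12.61 in SAT and 11.75 to 11.96 in VAT. The part of progenitor content in the genes that were highest in SAT replicate 3 was not tested.

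In the list of mast cells and granulocytes 5 of 15 genes were lower in VAT and 0 higher, against 1.75% of all genes called lower, and without SAT replicate 1 the count was 3. Cpa3, the mast cell carboxypeptidase, read 9.45, 8.42 and 9.90 in SAT and 7.39, 7.70 and 7.14 in VAT (difference -1.85, adjusted p = 0.000909, and -1.53 without SAT replicate 3). Mcpt4, a chymase, and Tpsb2, a tryptase, differed by -1.72 and -1.07. The summed list read, as log2, 9.63 to 10.61 in SAT and 8.90 to 9.13 in VAT. Ccl8, a chemokine for leukocytes, and Cxcl14, a chemokine of fibroblasts and skin, were lower too. Cxcl14 read 8.64, 8.60 and 8.57 in SAT and 6.78, 6.79 and 6.57 in VAT (difference -1.89, SE 0.21, adjusted p = 4.36e-05), and Ccl8 differed by -1.96.

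Ptprc, the pan-leukocyte antigen CD45, differed by -0.45 (adjusted p = 0.233) and Adgre1, a surface antigen of macrophages, by -0.50 (adjusted p = 0.0805). The Adgre1 difference was called without SAT replicate 2 (adjusted p = 0.0469) or VAT replicate 2 (0.0438), with quantile normalization (0.0401) and with housekeeping scaling (0.0394), and that of Ptprc with housekeeping scaling (0.0497). Cd3e of the T cell receptor complex read 6.94, 6.61 and 5.19 in SAT and 5.62, 6.41 and 5.65 in VAT (difference -0.35, adjusted p = 0.678), and without SAT replicate 3 it differed by -0.88 (adjusted p = 0.0161). Of 23 macrophage and monocyte genes 1 was higher, Trem2 (0.72), a lipid receptor of macrophages, and 2 were lower, a count that was 0 without VAT replicate 1, 1 without SAT replicate 1 or VAT replicate 3 and 4 without SAT replicate 2. Without SAT replicate 1 the number of higher genes was 2. In the T and NK cell list 0 of 21 were called, though 2 were lower without SAT replicate 3 and 1 without VAT replicate 2. Of its 21 differences 19 were below 0 (median -0.23). The 3 higher genes of 16 in the B and plasma cell list fell to 0 without SAT replicate 1, VAT replicate 1 or VAT replicate 2.

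Of 9 Schwann cell genes 3 were lower in VAT and 0 higher (1 higher without SAT replicate 3). Cdh19, a cadherin of Schwann cell precursors, read 5.42, 5.47 and 5.95 in SAT and 3.71, 3.59 and 3.35 in VAT, where it was near background (difference -2.06, adjusted p = 4.2e-06). Mbp, a myelin protein, differed by -0.82. Ntrk3, a neurotrophin receptor that is not on that list, read 7.90, 7.18 and 6.91 in SAT and 5.47, 5.41 and 5.19 in VAT (difference -1.97, adjusted p = 1.13e-05). In blood endothelium 0 of 18 genes were called (2 lower without VAT replicate 2 and 3 with housekeeping scaling), though 17 of the 18 differences were below 0 (median -0.24). Pecam1, the antigen CD31, differed by -0.10 (adjusted p = 0.769). In lymphatic endothelium 2 of 7 genes were higher, Mmrn1 (1.71) and Pdpn (0.89), and podoplanin, the product of Pdpn, is also made by mesothelium. Among 15 genes of pericytes and smooth muscle 3 were higher, led by Acta2 (0.77), the smooth muscle actin, and 2 were lower, Cspg4 (-1.03) and Abcc9 (-0.99), both of pericytes. The higher count there was 1 without SAT replicate 1 or VAT replicate 1, and 1 with housekeeping scaling.

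Other tissues that a dissected fat pad can carry were looked for by their markers. Of 21 genes of mammary and other glandular epithelium 2 were called, Krt8 and Krt18, which the mesothelial list holds too, and 9 of the 21 were near background in both depots. Epcam, the defining marker of glandular epithelium, read 3.09 to 3.17 on all 6 arrays. In the male and female reproductive tract lists 0 of 16 and 0 of 14 genes were called, and 11 and 7 of them were near background in both depots. On all 6 arrays the Y chromosome markers given above read over the near-background level and Xist under it. The female list was therefore not an informative check. Of 20 skeletal muscle genes Acta1 (1.34) and Actn3 (0.90) were higher, and the summed list read, as log2, 9.62 to 9.92 in SAT and 9.78 to 9.90 in VAT. In 24 genes of proliferation and in 12 of epidermis and hair follicle there was no call, though 19 of the 24 differences were below 0 (median -0.075).

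For the same 22180 genes the progenitor preparations gave 1250 depot calls (5.64%). They share no array with the tissue samples. Of the 1009 tissue calls, 360 (35.7%) were called in the same direction in AP, which is 28.8% of the AP calls, and 21 (2.08%) in the opposite direction. By direction these were 39.9% of the genes higher and 28.9% of the genes lower in VAT in tissue. The difference between the tissue and AP depot differences (the interaction, tissue minus AP) was called for 476 genes (2.15%) and for 215 (21.3%) of the 1009. The number of interaction calls ran from 264 without AP SAT replicate 1 to 626 as arrays were left out, and was 309 without AP SAT replicate 2, 279 without AP VAT replicate 2 and 293 without tissue SAT replicate 1.

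Genes at the top of the tissue list fell into both kinds. Upk3b differed by 4.03 in tissue and by 4.98 in AP, and the interaction was not called (adjusted p = 0.230). Msln differed by 3.28 and 3.63, and Mmp3 by -3.27 and -3.98. Of the 21 mesothelial markers 20 were higher in VAT in the AP preparations and 19 in tissue, and 2 had a called interaction.

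For other genes the tissue difference was the larger of the pair. Serpina3b differed by 4.67 in tissue and 0.01 in AP (interaction 4.66, adjusted p = 8.27e-07), and Mest by 3.16 and 0.61 (2.55, adjusted p = 4.73e-05). Agt differed by 2.71 and 0.38 (2.33, adjusted p = 0.00273). Cidea differed by -4.53 in tissue and 0.05 in AP (interaction -4.58, adjusted p = 0.000601), and Otop1 by -2.55 and 0.27 (-2.81, adjusted p = 0.000379). On the 6 AP arrays Serpina3b read 3.22 to 3.61, Otop1 3.82 to 4.34 and Cidea 4.13 to 4.41, near or just above background, where a depot difference could not be read. Prg4, the joint and serosal lubricant lubricin, turned its sign, with 2.55 in tissue and -1.81 in AP (4.36, adjusted p = 0.00213). Folh1, a peptidase, did likewise with 1.81 and -0.53, and Ntrk3 with -1.97 and 0.79. These signs are those of the fitted values. A called interaction does not by itself show that the AP difference was apart from 0.

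In another set the depot difference was smaller in tissue than in AP. Tcf21 differed by 0.85 in tissue and 4.44 in AP (interaction -3.60, adjusted p = 7.64e-07). Col6a5 differed by 2.65 and 4.88 and Matn2, a matrix adaptor protein, by 0.57 and 2.65. Tbx15 differed by -2.30 and -3.61, Il1r2 by -4.27 and -6.40, and Akr1c18 by -3.00 and -5.52 (interaction 2.52, adjusted p = 0.00131). The Il1r2 interaction (adjusted p = 0.0169) was lost without AP SAT replicate 1 (adjusted p = 0.0512). The VAT tissue level of Il1r2 was near background, so its tissue difference is only a fitted value. With housekeeping scaling the tissue difference of Matn2 was 0.43 and no longer called (adjusted p = 0.0877).

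**Figure D5:**
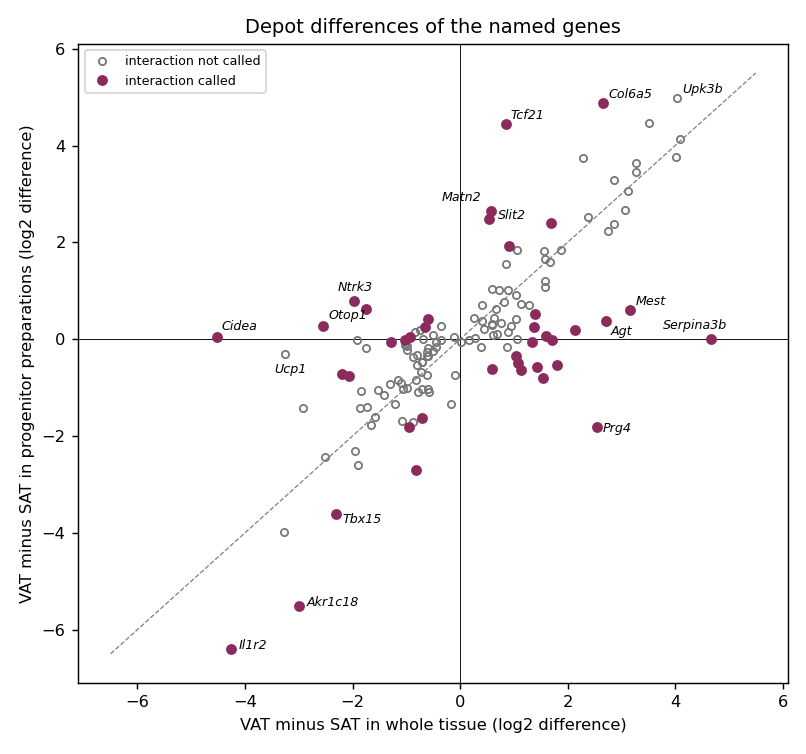
Depot difference (VAT minus SAT, log2) of the 142 named genes in whole tissue (horizontal axis) and in adipose progenitor preparations (vertical axis). Filled points have a called interaction, open points do not, and the dashed line marks equal differences. Upk3b lies near the line, Serpina3b and Cidea lie near 0 on the vertical axis, and Tcf21 and Il1r2 lie farther from 0 on the vertical axis than on the horizontal.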

How the data were processed

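RNA was measured on 12 Affymetrix mouse gene arrays, 3 in each of 4 groups, and the comparison was VAT minus SAT in whole tissue. The authors deposited log2 values of probe set intensity, for which the submitters' processing notes name RMA and Affymetrix Expression Console 1.3.0.187. RMA corrects background, equalizes the arrays' distributions and summarizes probes, so a shift of all genes in one depot would not show. The annotation library and level of summary are not given in the sources used here.

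Of 41345 probe sets, 23521 had 1 gene in the platform annotation. Where a gene had several, the one with the highest mean over the 12 arrays was kept, which left 22180 genes. limma 3.58.1 (R 4.3.3) fitted 1 mean per group on all 12 arrays without a filter (8 residual and 6.84 prior degrees of freedom), with 2-sided moderated tests and Benjamini-Hochberg adjustment over all genes. SE is that of the fit. The 45 gene lists hold 884 measured members.

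The members and lists were chosen with earlier results of these data known. The named genes were the 15 largest called rises and the 15 largest called falls without overlap, 23 fixed markers (21 measured), up to 3 called genes per list and direction, and 8 per direction by interaction. Predicted genes, small RNA and receptor families were left out of the first and last of these. Lack of overlap in the largest rises and falls was thus set by the choice and is no support for them. Calb2, Podxl, Ckmt1, Kdm5d, Uty and Eif2s3y were added after their values were seen.

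In data simulated for this contrast on 22180 genes, limma found 17 of 50 genes changed by 0.5 (log2), and 50 of 50 changed by 1, by 2 and by 4. The simulated noise was independent and normal, with the moderated spread of each gene. It held no shared array effects, no outlying array and no floor, so these numbers may overstate what the real arrays can show. Figures were drawn with matplotlib; array scans were not used here. The alternatives are given in the closing section. Promoter windows came from RefSeq's table.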

Additional observations from a re-analysis of the deposited data

Results flagged for a closer look

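Among the named genes, 40 showed a depot difference in whole tissue that differed from the one in the progenitor preparations by the interaction term (limma, adjusted p under 0.05). Up to 8 genes per direction had been named for their large interaction, so the 40 are in part set by that choice. The values are tissue minus AP on the log2 scale, and the fitted depot differences had opposite signs in the 2 preparations for 17 of the 40. Several of these had an AP difference near 0, such as Mmrn1 (-0.02), Fabp5 (0.04), Cidea (0.05) and Acta1 (-0.06). Of all 1009 tissue calls, 21 (2.08%) were called the opposite way in AP.

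For 23 genes the interaction was above 0. It was 4.66 for Serpina3b, 4.36 for Prg4, 2.55 for Mest, 2.52 for Akr1c18, 2.34 for Folh1, 2.34 for Rasl11b, 2.33 for Agt and 2.13 for Il1r2. Secreted or matrix-related genes with a positive value were C6 (2.01), Timp4 (1.95), Chrdl1 (1.77), Lbp (1.52), C2 (1.37), Tgfb3 (1.12), Vegfa (0.93) and Wnt2 (0.86). The others were Adh7 (1.88), Mmrn1 (1.73), Hspa1b (1.56), Acta1 (1.41), Tbx15 (1.303), Cry2 (1.21) and Osr1 (0.88). A value above 0 does not mean higher in VAT. Akr1c18, Il1r2, Adh7, Tbx15, Vegfa and Wnt2 were lower in VAT in both preparations by their fitted differences, and less so in tissue.

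For 17 genes it was below 0. It was -4.58 for Cidea, -3.60 for Tcf21, -2.81 for Otop1, -2.76 for Ntrk3, -2.38 for Pdk4, -2.23 for Col6a5, -2.08 for Matn2 and -1.94 for Slit2. The others were Apod (-1.48), Cdh19 (-1.30), Postn (-1.22), Actn3 (-1.03), Cspg4 (-1.003), Vldlr (-1.003), Fabp5 (-0.98), Angptl8 (-0.89) and Wt1 (-0.71). By their fitted differences Tcf21, Col6a5, Matn2, Slit2, Actn3 and Wt1 were higher in VAT in both preparations, and less so in tissue. The Pdk4 interaction missed the threshold with trend and robust empirical Bayes (adjusted p = 0.0717).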

How the results depend on the processing

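For 158 results of single genes, 3615 values under the alternatives were computed: 3345 kept direction and side of the threshold, 254 lost the call, 10 gained it and 6 reversed, all 6 in genes that were not called (Epcam -0.13 with housekeeping scaling and -0.015 to 0.025 as arrays were left out, Pparg -0.265 to 0.065, Dpp4 -0.50 to 0.25 and Pdgfra -0.65 to 0.012; the cause was not tested). The 1009 calls were 601 (398 higher, 203 lower) with the 6 tissue arrays alone, where fewer arrays set the spread, and 251 (154 and 97) with a log2 difference of at least 1 also required, when the interaction had 221. Housekeeping scaling gave 1019 calls (311 higher and 708 lower) and 704 for the interaction. As each array was left out, calls ran from 660 to 1026 (higher 412 to 642, lower 244 to 420) and interaction calls from 264 to 626; the cause was not tested. Same-numbered SAT and VAT arrays deviated with r of 0.0974, -0.135 and 0.0553, and differently numbered ones with r of -0.175 to 0.104. With 3 arrays per group these values cannot tell whether the numbers pair the samples, and no label says that they do. With the replicate number as a block there were 946 calls (581 and 365, interaction 417), and as a random effect 898.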

Other observations

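In basement membrane 3 of 17 genes were higher in VAT, against 2.8% of all genes called higher, led by Nid2 (1.29), which links laminin to collagen IV. The count was 1 without SAT replicate 1, SAT replicate 2, VAT replicate 2 or VAT replicate 3 and 5 without SAT replicate 3. With housekeeping scaling it was 1. Among 19 interferon-stimulated genes 1 was called lower, Iigp1, a GTPase that acts on vacuoles of intracellular pathogens. It read 8.43, 8.40 and 8.39 in SAT and 7.02, 7.88 and 6.69 in VAT (difference -1.21, limma adjusted p = 0.00363). The number of lower genes was 4 without SAT replicate 2, 2 without VAT replicate 2 and 3 with housekeeping scaling. Of the 19 differences 17 were below 0 (median -0.27). The summed list read, as log2, 10.87 to 11.18 in SAT and 10.45 to 10.69 in VAT. In the list of dissociation stress genes 1 of 23 was higher (2 without SAT replicate 1), the heat shock gene Hspa1b, with 5.44, 5.45 and 5.32 in SAT and 6.51, 6.42 and 6.51 in VAT (difference 1.08, adjusted p = 5.07e-06). Its near-identical neighbour Hspa1a differed by -0.20 (adjusted p = 0.605), so the split of signal between these copies is uncertain. Of 17 clock genes 1 was higher, Cry2 (0.60), a repressor of the clock, against 2.8% of all genes. Of 19 genes of insulin signalling 1 was higher and 1 lower, against 2.8% and 1.75% of all genes. The lower gene was Grb14 (-0.50), which inhibits the insulin receptor, and it was not called without SAT replicate 1 (adjusted p = 0.0567). The number of higher genes was 0 without SAT replicate 2, VAT replicate 1 or VAT replicate 3 and 2 without SAT replicate 3, and that of lower genes 2 without VAT replicate 1 or VAT replicate 2. Of 25 chemokines 1 was higher (0 without SAT replicate 1, SAT replicate 2, VAT replicate 1 or VAT replicate 3) and 3 were lower. Of 21 genes of steroid hormone metabolism and receptors 2 were lower (1 without SAT replicate 1, SAT replicate 2 or VAT replicate 3), and of 16 of antigen presentation 1 was lower (0 without any tissue array other than SAT replicate 3).

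A fit of all probe sets also covered those without a gene in the annotation. Of 16010 such probe sets 275 were called, 47 higher and 228 lower in VAT. Of 23521 probe sets with 1 gene 719 were called, 474 higher and 245 lower. These counts come from sets of unequal size and are not shares. The fit covered all 41345 probe sets in place of the 22180 genes of the main fit. Its number of calls is therefore not to be set beside the number of called genes given above. What the unannotated probe sets measure was not tested.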
